A study of Ambystoma mexicanum with 44 samples.

Results

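The 24 genes described here rose little or fell in the first day after injury of axolotl skin. They were higher a week after it, at every site sampled. They were chosen from the deposited log2 values among the 10951 probe sets that carried a gene symbol, which cover 8639 genes. In each of the denervated limb, the innervated limb and the flank wound, the mean of the day 7 arrays had to exceed the day 0 mean by at least 1 on the log2 scale, and the day 1 mean had to exceed it by less than 0.3. The denervated limb had no day 0 arrays of its own and was set against the uninjured limb of the innervated series. Of the probe sets with a symbol, 4.42% had the day 7 rise in denervated limbs, 3.78% in innervated limbs and 3.3% in flank wounds. The late rise and the lack of a larger day 1 rise are the choice itself and are given below as values without a test. Another 33 probe sets without a symbol met the same limits and are not described. Each of the 24 genes entered through 1 probe set. A further 9 probe sets of 7 of these genes did not meet the limits, 3 of them because of the day 1 change alone.

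The animals were aquatic axolotls (Ambystoma mexicanum), the salamander used for the study of limb regeneration, with no transgene or mutation named in the labels. Denervated limbs, taken at days 1, 3 and 7, were forelimbs amputated just above the elbow with the brachial nerves cut. Innervated limbs, taken at days 0, 1, 3 and 7, were amputated in the same way with the nerves left intact, and flank wounds, taken on the same days, were punch wounds through the skin of the body side. The tissue was epidermis with the cells adhering to it, 2 harvests of an animal were pooled, and 4 biological replicates made up each of the 11 groups, 44 Affymetrix arrays in all. In such bulk tissue, fewer cells of a type and less RNA per cell cannot be told apart. The labels give neither the age of the animals nor an array batch.

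A wound in salamander skin is first closed by migrating keratinocytes, which form a wound epidermis over the injury. Neutrophils and macrophages enter early. Macrophages later clear dead cells and matrix, and fibroblasts and epidermal cells lay down new matrix beneath the cover. In an amputated limb with its nerves intact the wound epidermis signals to the cells below and a blastema forms, whereas a limb deprived of nerves closes its wound but does not regenerate. A flank wound heals without forming an appendage. The roles given for single genes below are those known in mammals.

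The labelled tissue was checked against its markers. Of 8 keratinocyte markers 6 were measured, and DSP, CDH1, EPCAM and DSC2 averaged at least 11.7 on the log2 scale in every group, while TP63 had group means of 6.61 to 7.80 and PKP1 of 6.17 to 7.78. Markers of neighbouring tissue were present too. COL1A1, a collagen of fibroblasts, averaged at least 11.8 in every group, while the fibroblast markers PDGFRA and PRRX1 stayed at group means of 3.69 to 4.33. Skeletal muscle varied from array to array, and its mean level also differed between sites and days. The mean log2 level of 35 muscle genes was 9.79 in replicate 3 of the denervated limb at day 3 and 4.88 to 6.19 in the other denervated arrays of that day, and it was 9.63 and 9.95 in replicates 3 and 4 of the innervated limb at day 1. These 3 muscle-rich arrays had the highest values of the 44. The group mean of this muscle level was 6.29 in uninjured limb and 7.91 in uninjured flank. At day 1 it was 8.14 in denervated limbs, 8.18 in innervated limbs and 6.84 in flank wounds. At day 3 it was 6.45, 5.31 and 6.21 in the same order. On the arrays of day 7 the level was 4.83 to 4.98 in denervated limbs, 4.88 to 4.97 in innervated limbs and 5.52 to 5.98 in flank wounds.

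By function, the 24 genes were a mixed group. The 6 genes C1QB, C1QC, MARCO, GPR34, TLR7 and ACP5 encode recognition proteins and an enzyme of macrophages and related cells. FABP3, TMEM86A, CUBN and CYP7B1 handle lipids or take up ligands. TGFBI, MXRA5, ITGB5 and CDH15 belong to the matrix or to cell adhesion. IGFBP2, PRICKLE1 and PLXND1 act in signalling and cell orientation, DCX and ST8SIA2 are best known from migrating neurons, and ASAP1, STON1, MPP1, TPST1 and RNF125 serve membrane traffic, membrane scaffolding or protein modification. C1QB and C1QC are neighbouring genes in the RefSeq annotation of the axolotl assembly UKY_AmexF1_1.

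The day 7 change was largest for FABP3, with a mean over the sites of 3.62 on the log2 scale, a 12.3-fold rise. It was followed by MXRA5 at 3.14, PRICKLE1 at 2.82, CDH15 at 2.82, TGFBI at 2.74, TMEM86A at 2.71, CUBN at 2.51, IGFBP2 at 2.48, MARCO at 2.25 and STON1 at 1.91. The median day 7 change of the 24 genes was 2.01 in denervated limbs, 1.62 in innervated limbs and 1.67 in flank wounds. Just inside the limit on the day 7 rise lay ASAP1 with a smallest rise of 1.03, TPST1 with 1.03 and MPP1 with 1.05, and just outside it RNASET2 with 0.96, ADAMTS12 with 0.93 and DNASE2B with 0.92. Just inside the limit on day 1 lay TGFBI with a largest day 1 change of 0.29, C1QB with 0.28 and DCX with 0.27, and just outside it lay probe sets of FN1 with 0.30, of COL12A1 with 0.31 and of ARHGEF10 with 0.33.

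**Figure D1:**
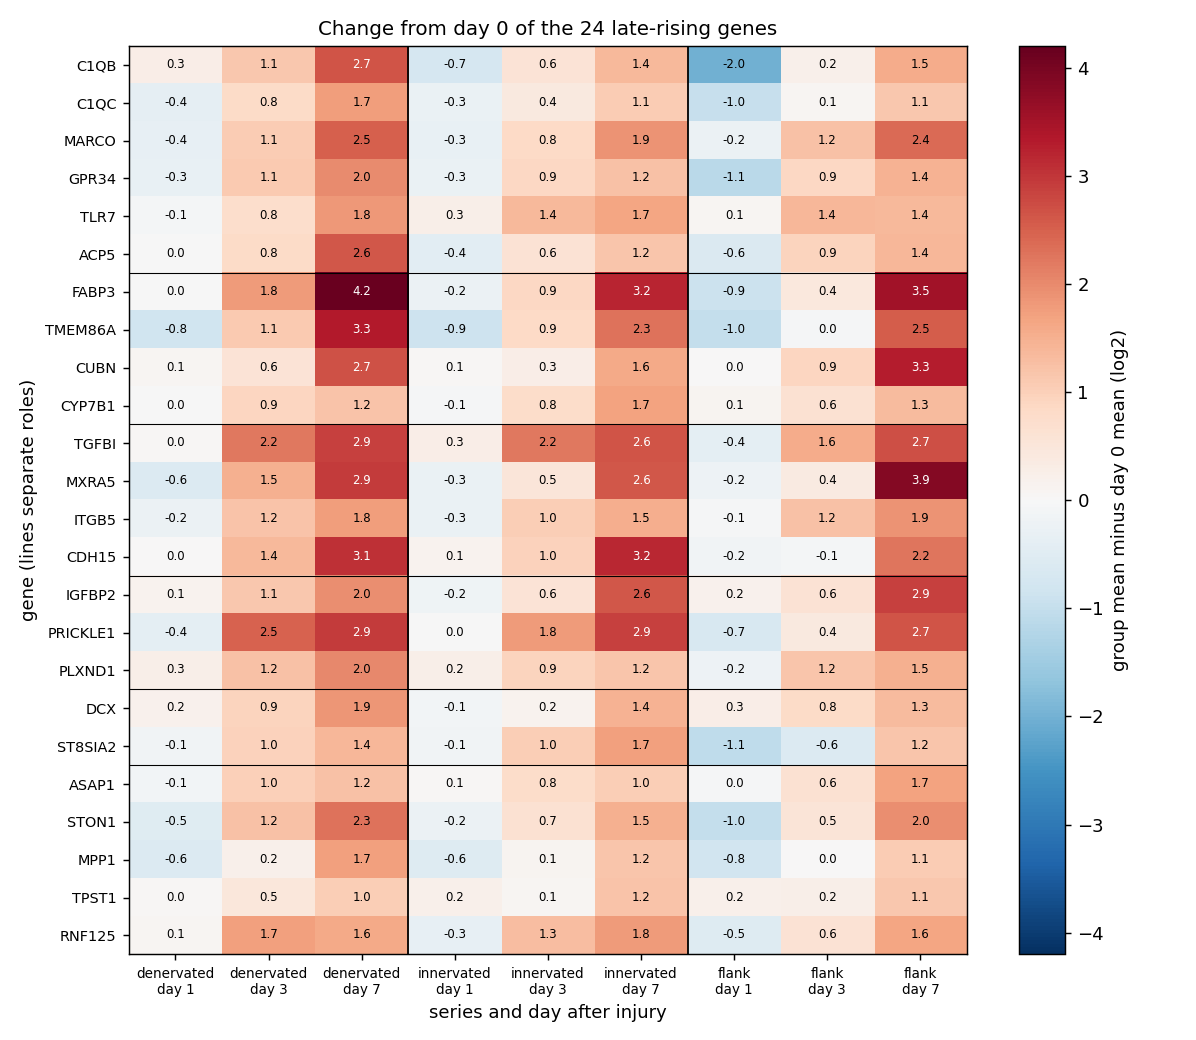
Change of each of the 24 genes from day 0 (rows, grouped by role) at days 1, 3 and 7 in denervated limbs, innervated limbs and flank wounds (columns), as the difference of group means of 4 arrays on the log2 scale, with the value printed in each cell. Day 1 cells are pale or blue and day 7 cells red because the genes were chosen so. The day 3 arrays did not enter the choice, but the day 0 arrays they are set against did. The median day 3 change was 1.11 in denervated limbs, 0.81 in innervated limbs and 0.62 in flank wounds, and the flank was not lowest for every gene.

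The limit on day 1 removed larger rises and set no bound on falls, so it favoured low day 1 values. The day 1 mean lay below the day 0 mean for 15 of the 24 genes in denervated limbs, 17 in innervated limbs and 18 in flank wounds. It did so in all 3 series for 12 of the 24, and for 3701 of all 10951 probe sets with a symbol. The median day 1 change was -0.05 in denervated limbs, -0.21 in innervated limbs and -0.32 in flank wounds. Over all probe sets with a symbol it was -0.02, -0.04 and 0.03 in the same order. A fall of 1 or more on the log2 scale occurred for 5 genes in the flank, C1QB, GPR34, TMEM86A, ST8SIA2 and STON1, and for 0 in either limb series. The share of all probe sets with such a fall was not counted, nor was the share with a lower day 1 mean in each single series. Without those shares the counts do not show a trait of these genes or a difference between the sites. These values describe the choice and its margin and were not tested.

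At day 3, the time point that the choice did not use, most of the genes stood between their day 0 and day 7 levels. The day 3 mean was above day 0 for all 24 genes in both limb series and for 21 in the flank, where TMEM86A, CDH15 and ST8SIA2 were below it, and the day 7 mean was above day 3 for 23, 24 and 23 genes in denervated limbs, innervated limbs and flank wounds. The flank changes were -0.04 for TMEM86A, -0.09 for CDH15 and -0.575 for ST8SIA2. For CDH15, replicate 2 of the uninjured flank read 4.92 and the other replicates 3.54 to 3.82. A day 3 mean at least 1 above day 0 was reached by 15 of the 24 genes in denervated limbs, where 3.62% of all probe sets with a symbol did so, by 6 in innervated limbs against 3.41%, by 5 in flank wounds against 2.58%, and in all 3 series by 2 genes, TGFBI and ITGB5, against 1.7%. These counts are a description, because the day 0 arrays and, through the choice, the day 7 arrays are shared. The denervated count also leaned on replicate 3, the muscle-rich array, which was the highest denervated array of day 3 for 16 of the 24 genes. Without that array the count in denervated limbs was 11. The median share of the day 7 rise present at day 3 was 50.1% in denervated limbs (11.8% to 108%), 44.2% in innervated limbs (7.22% to 84.4%) and 27.3% in flank wounds (-49.1% to 101%). The share was smallest in the flank for 15 genes and largest there for 5, and more of the rise came after day 3 than before it for 12 genes in denervated limbs, 14 in innervated limbs and 16 in flank wounds. The 244 other named probe sets with the same day 7 rise were those up by 0.3 or more at day 1 in at least 1 series. By day 3 they had reached a median of 85.1%, 87.2% and 74.6% of the rise in the same order of series. Their median day 1 changes were already 1.41, 1.48 and 1.22, so a larger share by day 3 follows in part from how the sets were split.

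The genes nearest to their day 7 level at day 3, by the mean share over the series, were TLR7 with 75.0%, PLXND1 with 73.3%, RNF125 with 73.2%, TGFBI with 73.1%, ITGB5 with 66.8% and ASAP1 with 64.8%. Those farthest from it were MPP1 with 7.37%, CUBN with 21.9%, TMEM86A with 23.0%, CDH15 with 23.8%, TPST1 with 25% and ST8SIA2 with 26.4%. The low mean of ST8SIA2 came from the flank alone, at -49.1%. In denervated and innervated limbs its shares were 68.7% and 59.5%, above the medians of the 24 genes there. RNF125 in denervated limbs and TLR7 in flank wounds had reached slightly more than their day 7 rise at day 3, 108% and 101% of it.

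**Figure D2:**
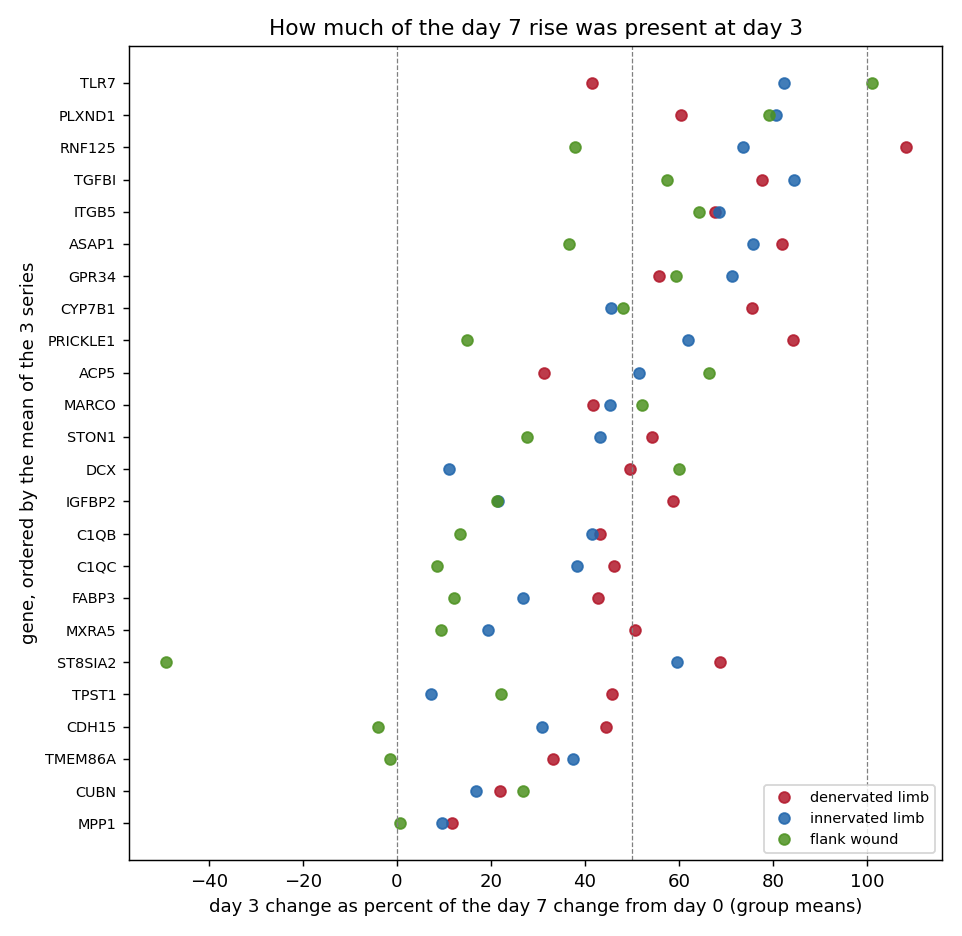
Share of the day 7 change from day 0 that was present at day 3 (horizontal axis, percent, from group means of 4 arrays) for each of the 24 genes (vertical axis, ordered by the mean of the series) in denervated limbs (red), innervated limbs (blue) and flank wounds (green). The green point lies farthest left for 15 of the 24 genes, and ST8SIA2 in the flank is below its day 0 level at -49.1%.

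Differences between sites were tested at day 3 and at day 7 with limma across all 20035 probe sets other than controls, with Benjamini-Hochberg adjustment, and a gene was called at an adjusted p under 0.05. The day 3 arrays did not enter the choice. The day 7 and day 0 arrays did, each day 7 group against a day 0 group, with the innervated day 0 arrays serving both limb series. The limit was the same in every series, and the rule did not ask for any order of the sites. Each gene still had to be high at day 7 in all of them, so the day 7 and day 0 tests use values that entered the choice. The 2 limb series are compared with the same flank arrays, and at day 3 and at day 7 the innervated arrays serve in 2 of the comparisons, so the comparisons are not independent of each other. Differences between limb and flank after injury are differences of level, without correction for differences in uninjured skin.

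Between the denervated and the innervated limb at day 3, limma called 0 of the 24 genes, where it called 0.265% of all probe sets (0.0349% higher and 0.23% lower in the denervated limb), and 7 of the 24 had an unadjusted p under 0.05. The denervated mean was the higher for 22 of the 24 genes, with a median difference of 0.30 on the log2 scale against 0.00 over all probe sets. Replicate 3, the muscle-rich denervated array, was the highest denervated array for 16 of the 24, and the mean level of the 24 genes was 8.17 on it and 7.60 to 7.74 on the others. Without it the denervated mean was the higher for 19 genes, the median difference was 0.21, and the mean difference was 0.22 in place of 0.34, an alternative chosen after seeing the data. In the denervated limb against the flank at day 3, 8 of the 24 were called, all higher in the denervated limb, where 6.33% of all probe sets were called, 3.59% higher and 2.74% lower. In the innervated limb against the flank at day 3, 5 were called higher and 1 lower, where 6.24% of all probe sets were called, 3.84% higher and 2.4% lower. Of the 244 other probe sets with the day 7 rise, 34% were called between denervated limb and flank and 32.8% between innervated limb and flank at day 3. The corresponding 33.3% and 25% of the late-rising genes were thus no higher than those of other genes raised at day 7, a comparison given without a test.

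The day 7 and day 0 values entered the choice, so calls of those days, here and below, are a description of chosen genes. The shares of all probe sets beside them come from a set that was not chosen in this way. At day 7, 5 of the 24 were called between the limbs, all higher in the denervated limb, where 1.7% of all probe sets were called, 0.893% higher and 0.804% lower. The denervated limb was above the flank for 3 of the 24, where 7.2% of all probe sets were called, 3.41% higher and 3.78% lower. The innervated limb lay below the flank for 2, where 9.32% of all probe sets were called, 4.03% higher and 5.29% lower. In uninjured skin at day 0, 1 gene was higher in limb than in flank, where 4.35% of all probe sets were called, 1.9% higher and 2.46% lower. Between the limbs at day 7, 20.8% of the late-rising genes were called and 6.1% of the 244 other probe sets with the day 7 rise. Against the flank 12.5% of the late-rising genes and 20.5% of the other probe sets were called for the denervated limb, and 8.3% and 21.3% for the innervated limb, again without a test. Whether the difference between the limbs itself changed from day 3 to day 7 was tested as a difference of differences. In it limma called 0 of the 24 genes, where it called 0.0549% of all probe sets (0.0499% higher and 0.00499% lower), and 6 of the 24 had an unadjusted p under 0.05. The changes between the days of the limb differences named below are therefore values, not calls.

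**Figure D3:**
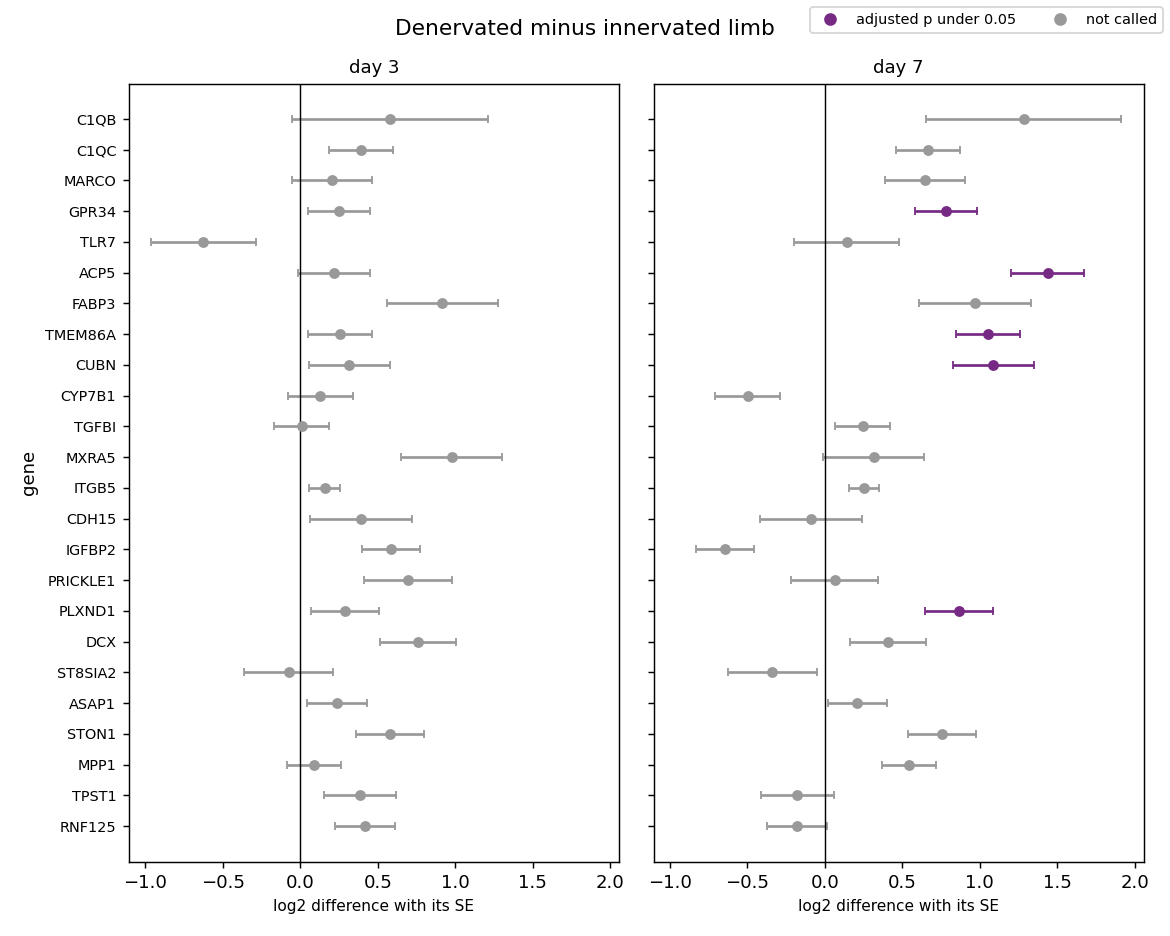
Difference between the denervated and the innervated limb (horizontal axis, log2, bars are the standard error from limma) for each of the 24 genes (vertical axis) at day 3 (left) and day 7 (right), with genes called at an adjusted p under 0.05 in purple and the others in grey. At day 3 no point is purple although 22 of 24 lie right of 0, and at day 7 ACP5, CUBN, TMEM86A, PLXND1 and GPR34 are purple and lie right of 0. The day 7 values entered the choice of the genes.

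Among the 6 genes of macrophages and related cells, ACP5 differed most between the limbs at day 7. ACP5 (probe set axo05303-f_at) encodes tartrate-resistant acid phosphatase, an enzyme of osteoclasts and some macrophages. At day 7 its log2 level was 9.43, 9.19, 9.48 and 9.12 in denervated limbs, 7.62, 8.17, 7.65 and 8.03 in innervated limbs, and 8.18, 7.55, 7.73 and 7.99 in flank wounds. All 4 denervated arrays lay above all 8 others, and the innervated and flank arrays overlapped. The difference was 1.44 ± 0.23 (SE) between denervated and innervated limbs, with an adjusted p of 5.87e-04 in limma, and 1.44 ± 0.23 between denervated limb and flank, with an adjusted p of 5.16e-05. At day 3 its levels were 7.64, 7.27, 8.01 and 7.16 in denervated limbs against 7.15, 7.48, 7.25 and 7.33 in innervated limbs, and the groups overlapped. The growth of the limb difference between the days was 1.22 ± 0.33, with an adjusted p of 0.164.

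GPR34, a receptor for lysophosphatidylserine on microglia and other macrophages, was the other of these 6 genes called between the limbs at day 7. Its log2 level was 8.34, 8.45, 8.43 and 8.13 in denervated limbs and 7.04, 7.80, 7.73 and 7.66 in innervated limbs. The groups did not overlap, and the difference was 0.78 ± 0.20 with an adjusted p of 0.0326 in limma. The call was lost, with adjusted p of 0.0692, 0.0991, 0.0932 and 0.230, without denervated replicate 1, 2 or 3 or innervated replicate 1, and with an adjusted p of 0.0593 when the arrays of those groups alone were fitted.

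C1QB and C1QC encode chains of C1q, which starts the classical complement pathway and is made largely by macrophages. C1QC (axo02021-r_at) read 12.08, 12.01, 11.95 and 11.51 in denervated limbs at day 7, 11.12, 11.16, 11.39 and 11.21 in innervated limbs and 11.26, 11.17, 11.30 and 11.30 in flank wounds. The denervated arrays were above all others, by 0.67 ± 0.21 over the innervated limb and 0.63 ± 0.21 over the flank, but neither difference was called, with adjusted p of 0.0882 and 0.0545 in limma. At day 3, C1QC was called higher in the denervated limb than in the flank, by 0.71 ± 0.21 with an adjusted p of 0.0285, although 1 flank array, at 10.61, equalled the lowest denervated array. That gene was named after its values were seen, and the call was lost in 7 of 16 alternatives, with an adjusted p of 0.157 without denervated replicate 3, 0.0800 without denervated replicate 1, 0.0630, 0.0659 and 0.115 without flank replicate 1, 2 or 4, 0.153 with the 3 muscle-rich arrays omitted and 0.103 with only those groups' arrays.

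C1QB (axo06499-f_at) was the most variable of the 24 between replicates. Its log2 level at day 7 was 9.45, 10.17, 10.22 and 8.94 in denervated limbs, 8.41, 6.83, 9.64 and 8.77 in innervated limbs and 9.03, 8.66, 9.75 and 8.92 in flank wounds. The difference of 1.28 ± 0.63 between the limbs was not called, with an adjusted p of 0.438 in limma. In the flank C1QB had 4 day 1 values of 7.26, 4.70, 5.61 and 4.47, against 7.27, 7.56, 8.03 and 7.31 at day 0, so every day 1 array lay below every day 0 array, replicate 1 only just. A second, much dimmer C1QB probe set, with a mean of 3.66 over all arrays against 7.68, had day 7 changes of 0.30, 0.13 and 0.21 in denervated limbs, innervated limbs and flank wounds.

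MARCO, a scavenger receptor that binds bacteria, and TLR7, an endosomal receptor for single-stranded RNA, were called in none of the comparisons between sites. MARCO averaged 7.91 ± 0.23 in denervated limbs, 7.27 ± 0.38 in innervated limbs and 7.63 ± 0.32 in flank wounds at day 7 (SD, n = 4 each). TLR7 had a higher day 3 mean in the innervated limb than in the denervated limb, and was 1 of 2 genes with that order, the other being ST8SIA2. Its day 3 log2 levels were 4.70, 4.91, 6.42 and 5.70 in denervated limbs against 5.90, 5.99, 6.17 and 6.17 in innervated limbs, with the highest array among the denervated ones, and the difference of -0.63 ± 0.34 was not called (adjusted p = 0.8, limma). A second, brighter TLR7 probe set moved alike at day 7, by 2.02, 1.69 and 1.54, and missed the limits through a day 1 change of 0.39 in innervated limbs.

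**Figure D4:**
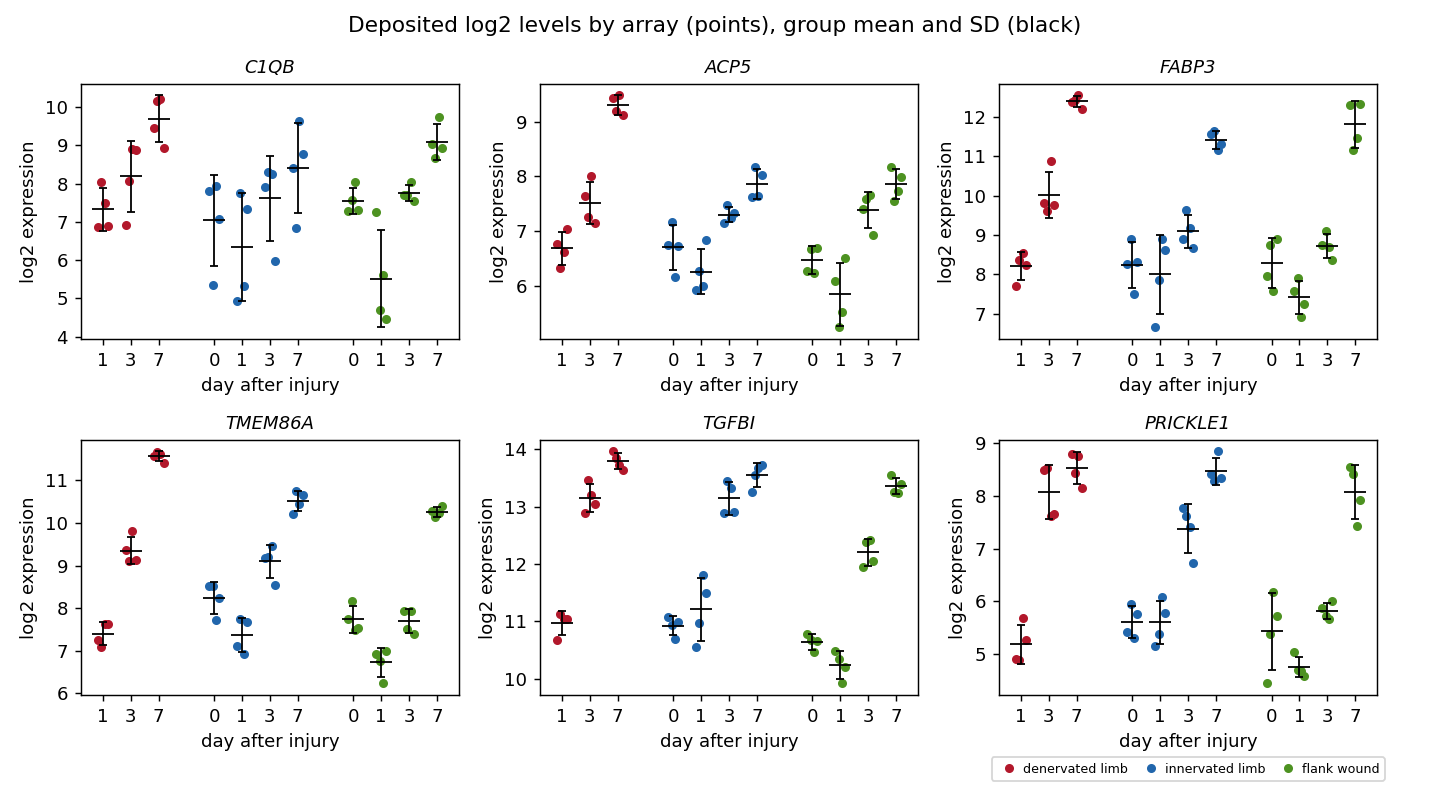
Deposited log2 level of 6 of the genes on every array (points) by day after injury, with group mean and SD in black, for denervated limbs (red, no day 0), innervated limbs (blue) and flank wounds (green). At day 7 the 4 denervated arrays of ACP5 and TMEM86A lie above every innervated and flank array, and at day 3 the flank arrays of TMEM86A, TGFBI and PRICKLE1 lie below every limb array.

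Other genes of phagocytes were set beside these 6. In a list of myeloid genes that leaves out the members, 20 were measured. Between the limbs at day 7, 0.893% of all probe sets were higher in the denervated limb and 0.804% lower. Of the 20 myeloid genes, 5 were higher and 0 lower, with a median difference of 0.65 against 0.01 over all probe sets. They were PLEK, a substrate of protein kinase C in blood cells, with 1.08 ± 0.23, LCP1, an actin-bundling protein of leukocytes, with 0.82 ± 0.22, CD53 with 0.76 ± 0.20, CSF1R, the receptor that maintains macrophages, with 0.68 ± 0.17, and LGMN, a lysosomal protease, with 0.41 ± 0.11. The list's mean log2 level was 9.48 to 9.56 on the denervated arrays of day 7, 8.69 to 9.19 on the innervated and 8.85 to 9.22 on the flank arrays. Part of the list had risen early. At day 1, 9 of the 20 had risen above day 0 in denervated limbs, 10 in innervated limbs and 12 in flank wounds, where 14.1%, 14.7% and 20% of all probe sets had done so.

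The osteoclast and lysosomal list was counted in the same way, without its member ACP5. Of all probe sets, 0.893% were higher and 0.804% lower in the denervated than in the innervated limb at day 7. Of the list's 33 measured genes, 12 were higher and 0 lower, with a median difference of 0.31. CTSK, cathepsin K, the collagen-degrading protease of osteoclasts, led them with 13.13, 12.42, 12.76 and 11.64 in denervated limbs, against 6.91, 8.05, 9.99 and 8.5 in innervated limbs and 7.52, 7.28, 7.86 and 7.65 in flank wounds. All 4 denervated arrays lay above all others, and the difference between the limbs was 4.13 ± 0.46 with an adjusted p of 9.55e-07 in limma. TCIRG1 and ATP6V1H, subunits of the proton pump that acidifies lysosomes and the resorption space, differed by 0.76 ± 0.14 and 0.68 ± 0.11. These genes were named after their values were seen. At day 1, 15 of the 33 had fallen below day 0 in denervated limbs, 15 in innervated limbs and 12 in flank wounds, where 20.1%, 21.2% and 21.3% of all probe sets had. By day 7, 19 of the 33 had risen in denervated limbs, 8 in innervated limbs and 13 in flank wounds. The shares of all probe sets that had risen were 13.1%, 12.8% and 11.5%.

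Among the lipid and uptake genes, TMEM86A was called above the flank at day 3 in both limbs and FABP3 in the denervated limb. TMEM86A (axo01819-f_at), an enzyme that cleaves lysoplasmalogens, read 9.37, 9.11, 9.80 and 9.12 in denervated limbs at day 3, 9.18, 9.2, 9.45 and 8.55 in innervated limbs and 7.93, 7.51, 7.94 and 7.4 in flank wounds. All 8 limb arrays were above all 4 flank arrays. Relative to the flank, the denervated limb was higher by 1.66 ± 0.21 (adjusted p = 1.10e-06, limma) and the innervated limb exceeded it by 1.40 ± 0.21 (adjusted p = 2.01e-05). Uninjured limb was already above uninjured flank by 0.51 ± 0.21, a difference that was not called (adjusted p = 0.174, limma). In the flank the day 3 mean was back at the day 0 level, with a change of -0.04.

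At day 7 the order of the TMEM86A means was the same, and the arrays that stood apart were those of the denervated limb. Its log2 level was 11.57, 11.67, 11.63 and 11.42 in denervated limbs, 10.22, 10.76, 10.44 and 10.66 in innervated limbs and 10.27, 10.14, 10.23 and 10.41 in flank wounds. The denervated arrays were above all others, by 1.05 ± 0.21 over the innervated limb (adjusted p = 0.00509, limma) and 1.31 ± 0.21 over the flank (adjusted p = 3.73e-05). Innervated and flank arrays overlapped, with a difference of 0.26 ± 0.21 that was not called (adjusted p = 0.561). The growth of the limb difference between the days, 0.80 ± 0.29, was not called (adjusted p = 0.498).

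FABP3 (axo20743-f_at), the fatty acid binding protein typical of heart and skeletal muscle, rose most of the 24 by day 7. Its day 7 levels were 12.39, 12.42, 12.55 and 12.21 in denervated limbs, 11.57, 11.65, 11.16 and 11.31 in innervated limbs and 12.30, 11.15, 11.45 and 12.33 in flank wounds. The denervated arrays lay above the innervated ones, but the difference of 0.97 ± 0.36 was not called (adjusted p = 0.203, limma). On the same arrays the muscle list was low, as given above, and CKM, the creatine kinase of muscle, averaged 4.94, 4.81 and 7.99 in the same order of series, against 8.57 in uninjured limb and 12.6 in uninjured flank. The part of muscle in the FABP3 values was not tested.

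At day 3, where muscle signal differed between arrays, FABP3 was highest on the muscle-rich array. Its levels were 9.80, 9.61, 10.88 and 9.75 in denervated limbs, 8.90, 9.63, 9.18 and 8.66 in innervated limbs and 8.75, 9.10, 8.69 and 8.35 in flank wounds. The highest value was on denervated replicate 3, the array with a muscle list mean of 9.79. That array was the highest denervated array of day 3 for 16 of the genes described here. FABP3 averaged 10.01 in denervated limbs, 9.09 in innervated limbs and 8.72 in flank wounds at day 3. In the same order CKM averaged 8.115, 6.33 and 9.52, and the muscle list 6.45, 5.31 and 6.21. The part of muscle in these FABP3 values was not tested. Against the flank, with no overlap, the denervated limb was higher by 1.29 ± 0.36 (adjusted p = 0.0232, limma). Without denervated replicate 3 the adjusted p was 0.129, with the 3 muscle-rich arrays omitted it was 0.0708, and without flank replicate 1, 3 or 4 it was 0.0511, 0.0529 or 0.0804.

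CUBN (axo04567-r_at), the endocytic receptor cubilin, had a lower day 7 mean in the innervated limb than at the other sites. It read 7.62, 7.31, 7.4 and 7.01 in denervated limbs, 5.43, 6.44, 5.99 and 7.13 in innervated limbs and 8.39, 7.42, 6.97 and 8.42 in flank wounds. Innervated replicate 4 overlapped with both other groups. The innervated limb was below the flank by a log2 difference of -1.55 ± 0.26 (adjusted p = 8.87e-05, limma), and the denervated limb was above the innervated limb by 1.09 ± 0.26 (adjusted p = 0.0230). Both calls were named after their values were seen. The call between the limbs was lost with an adjusted p of 0.152 when only those groups' arrays were fitted, and without denervated replicate 1, 2 or 3 (0.0770, 0.0538 and 0.0579) or innervated replicate 1 or 3 (0.186 and 0.0694). The call between innervated limb and flank was lost with an adjusted p of 0.0505 when only those groups' arrays were fitted. The other CUBN probe sets were dimmer, with means of 4.22 and 4.30 over all arrays against 5.47. They rose by at most 0.63 in the limb series, and 1 of them by 2.10 in the flank.

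CYP7B1, which hydroxylates oxysterols, was called in none of the comparisons, with day 7 means of 6.02 ± 0.42 in denervated limbs, 6.51 ± 0.43 in innervated limbs and 6.12 ± 0.19 in flank wounds (SD, n = 4 each). A second, brighter CYP7B1 probe set rose by 1.85, 1.87 and 2.19 at day 7 and missed the limits through a day 1 change of 0.445 in the flank. In the list of lipid and sterol metabolism, 38 genes other than FABP3 were measured. At day 7, 7 of the 38 were higher than at day 0 in denervated limbs, 5 in innervated limbs and 5 in flank wounds, while 16, 15 and 11 were lower, where 13.1%, 12.8% and 11.5% of all probe sets were higher and 13.9%, 13.8% and 12.2% lower. Between the limbs at day 7, 1 of the 38 was higher in the denervated limb and 0 lower. Of all probe sets, 0.893% were higher and 0.804% lower.

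Of the 4 matrix and adhesion genes, TGFBI was called above the flank at day 3 in both limbs, MXRA5 in the denervated limb, and ITGB5 and CDH15 in neither. TGFBI (axo05348-r_at), a secreted protein that links collagens to integrins, read 12.89, 13.47, 13.20 and 13.04 in denervated limbs at day 3, 12.88, 13.44, 13.33 and 12.91 in innervated limbs and 11.95, 12.39, 12.41 and 12.05 in flank wounds. All limb arrays were above all flank arrays, and the limb series overlapped closely. The denervated limb exceeded the flank by 0.95 ± 0.18 (adjusted p = 5.15e-04, limma) and the innervated limb exceeded it by 0.94 ± 0.18 (adjusted p = 5.52e-04). By day 7 the means were 13.80 ± 0.14, 13.55 ± 0.21 and 13.36 ± 0.14 (SD, n = 4 each) in the same order, and no difference was called.

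MXRA5, a large secreted matrix protein, separated the denervated limb from the flank at day 3. It read 6.21, 5.36, 7.53 and 6.17 in denervated limbs, 5.73, 5.43, 5.39 and 4.81 in innervated limbs and 4.64, 4.73, 4.85 and 4.83 in flank wounds. The highest array was again denervated replicate 3. The denervated limb exceeded the flank by 1.56 ± 0.33 (adjusted p = 0.00189, limma), a call that was lost at an adjusted p of 0.0530 when only those groups' arrays were fitted. At day 7 the flank had the highest mean of MXRA5, 8.26 ± 0.44, against 7.77 ± 0.82 in denervated limbs and 7.45 ± 0.62 in innervated limbs (SD, n = 4 each), with no call.

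ITGB5, the integrin subunit that with alpha V binds vitronectin, was close between sites. Its day 3 means were 9.59 ± 0.22, 9.43 ± 0.09 and 9.49 ± 0.17 in denervated limbs, innervated limbs and flank wounds (SD, n = 4 each). It was called in none of the comparisons. A second, dimmer ITGB5 probe set changed less, by 0.35, 0.14 and 0.78 at day 3 and by 0.50, 0.51 and 0.78 at day 7. CDH15, the cadherin of muscle precursor cells, stayed at 3.87, 3.86, 4.06 and 3.82 in flank wounds at day 3, and was at 5.56, 5.19, 4.43 and 4.35 in denervated limbs and 4.87, 4.39, 4.55 and 4.16 in innervated limbs. Every limb array was above every flank array, but the differences of 0.98 ± 0.33 and 0.59 ± 0.33 were not called (adjusted p = 0.0683 and 0.345, limma). Of 51 other matrix glycoproteins and proteoglycans measured, 10 were higher and 1 lower in the denervated limb than in the flank at day 3. Of all probe sets 3.59% were higher and 2.74% lower. In the innervated limb 10 of the 51 were higher than in the flank and 0 lower, where 3.84% and 2.4% of all probe sets were. FN1, fibronectin, was among the higher genes in both limbs, with 1.88 ± 0.33 and 1.40 ± 0.33, and was named after its values were seen. Of 59 other genes of actin, adhesion and migration, 4 were higher and 2 lower in the denervated limb than in the flank at day 3. The shares of all probe sets in that comparison were again 3.59% and 2.74%.

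**Figure D5:**
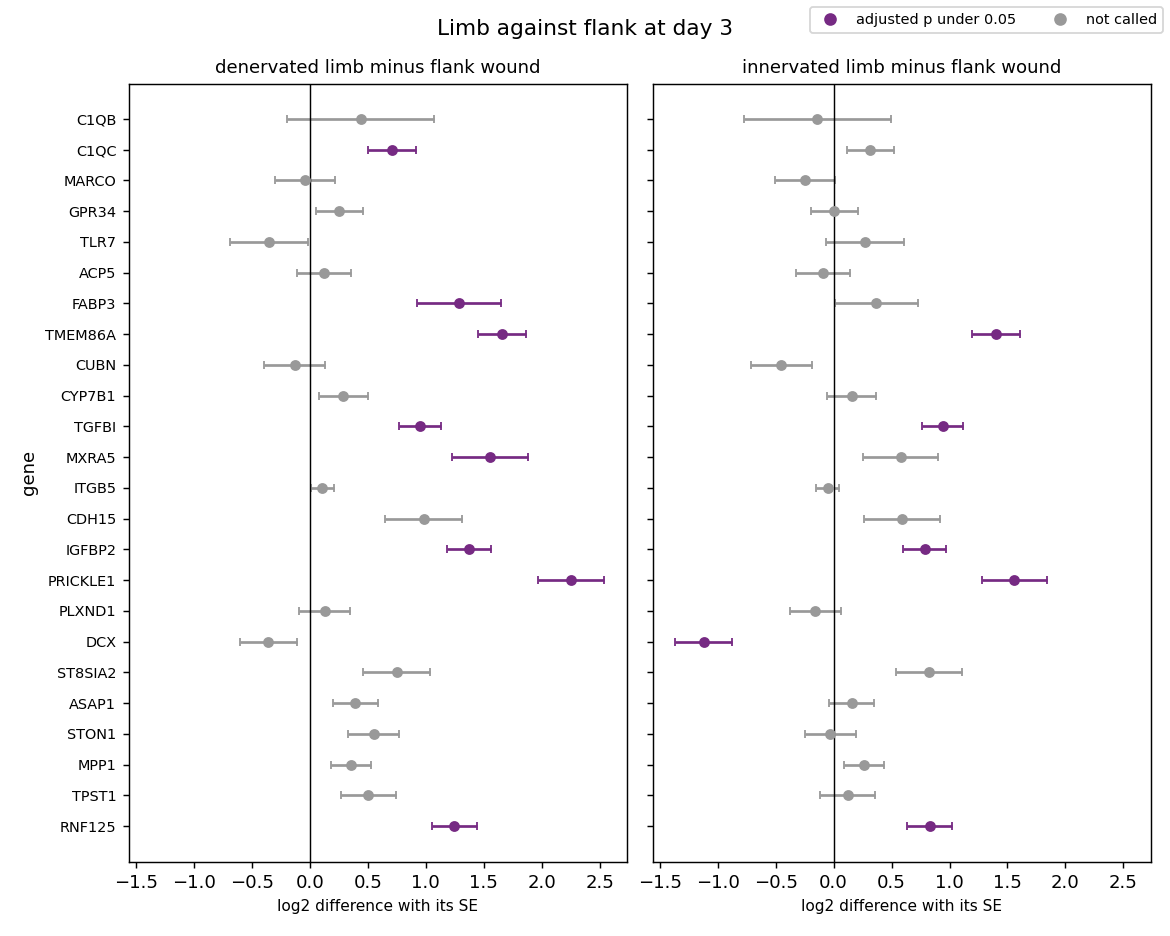
Difference from the flank wound at day 3 (horizontal axis, log2, bars are the standard error from limma) of each of the 24 genes (vertical axis) in the denervated limb (left) and the innervated limb (right), with genes called at an adjusted p under 0.05 in purple and the others in grey. PRICKLE1 lies farthest right in both panels, and DCX in the innervated limb is the 1 called gene left of 0.

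The signalling genes held the largest difference between limb and flank at day 3. PRICKLE1 (axo06656-f_at) is a component of planar cell polarity, the system that orients cells within a sheet. It read 8.5, 8.53, 7.62 and 7.66 in denervated limbs, 7.77, 7.62, 7.42 and 6.72 in innervated limbs and 5.88, 5.73, 5.67 and 6.01 in flank wounds at day 3. The lowest limb array was above the highest flank array. Differences from the flank were called in both limbs. The denervated limb exceeded the flank by 2.26 ± 0.28 (adjusted p = 1.11e-06, limma) and the innervated limb exceeded it by 1.56 ± 0.28 (adjusted p = 3.29e-04). At day 7 the levels were 8.80, 8.43, 8.77 and 8.15 in denervated limbs, 8.42, 8.28, 8.85 and 8.35 in innervated limbs and 8.55, 8.42, 7.43 and 7.93 in flank wounds, the groups overlapped, and no difference was called.

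IGFBP2 (axo07343-r_at), which binds insulin-like growth factors, was higher in limb than in flank skin before injury. At day 0 it read 8.15, 8.12, 8.78 and 8.02 in uninjured limb against 7.08, 7.64, 7.26 and 7.73 in uninjured flank, without overlap, a difference of 0.84 ± 0.19 (adjusted p = 0.00550, limma) that was not called when only those groups' arrays were fitted (adjusted p = 0.111). At day 3 it read 9.45, 9.37, 9.38 and 9.45 in denervated limbs, 9.03, 8.42, 9.29 and 8.57 in innervated limbs and 7.55, 7.74, 8.55 and 8.33 in flank wounds. The denervated arrays were above all others, and innervated and flank arrays overlapped. The denervated limb exceeded the flank by 1.37 ± 0.19 (adjusted p = 4.67e-06). The innervated limb exceeded the flank by 0.79 ± 0.19 (adjusted p = 0.00719, limma), a call named after its values were seen. That call was lost without innervated replicate 3 (0.0555), without flank replicate 1 (0.0581) and with only those groups' arrays (0.118). The innervated difference was no larger than the one before injury. From day 0 to day 3 IGFBP2 rose by 1.145 in denervated limbs, 0.56 in innervated limbs and 0.615 in flank wounds.

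The order of the limbs turned for IGFBP2 between day 3 and day 7. At day 7 it read 10.29, 10.28, 10.20 and 10.11 in denervated limbs and 10.84, 11.12, 10.71 and 10.79 in innervated limbs, so that every denervated array was now the lower. The limb difference was 0.59 ± 0.19 at day 3 and -0.65 ± 0.19 at day 7, neither called, with adjusted p of 0.328 and 0.0682 in limma. The change of the difference was -1.23 ± 0.27, with an adjusted p of 0.0507, the lowest of the 24 genes and not a call, and was named after its values were seen. Over 24 alternatives the adjusted p was 0.0274 to 0.143, lowest without innervated replicate 3 of day 3.

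PLXND1, a receptor for semaphorins, was higher in the denervated limb at day 7, with 7.98, 8.02, 8.10 and 7.60 against 6.96, 6.94, 7.45 and 6.89 in innervated limbs. The groups did not overlap and the difference was 0.87 ± 0.22 (adjusted p = 0.0309, limma). The call was lost without denervated replicate 1, 2 or 3 (0.0748, 0.0911 and 0.0992) and without innervated replicate 1, 2 or 4 (0.132, 0.0897 and 0.0835). In flank wounds PLXND1 read 7.36, 7.38, 7.06 and 7.42 at day 7, below every denervated array, and that difference of 0.62 ± 0.22 was not called (adjusted p = 0.0836).

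The genes known from migrating neurons differed in the order of the sites. DCX (axo07083-r_at), a microtubule-binding protein, was the 1 gene called lower in the innervated limb than in the flank at day 3. It read 6.03, 5.60, 6.84 and 5.88 in denervated limbs, 5.05, 6.14, 5.07 and 5.05 in innervated limbs and 6.51, 6.64, 6.76 and 5.88 in flank wounds. Innervated replicate 2 overlapped with the flank, while the other 3 innervated arrays were below all flank and denervated arrays. The difference from the flank was -1.12 ± 0.25 (adjusted p = 0.00306, limma), named after its values were seen. Uninjured limb was below uninjured flank by a log2 difference of -0.475 ± 0.25, which was not called (adjusted p = 0.316, limma). As changes from day 0, the day 3 means of this probe set were 0.92, 0.16 and 0.81 in denervated limbs, innervated limbs and flank wounds, and those of a second DCX probe set were 0.83, 0.35 and 0.24. The second probe set thus did not share the smaller change in innervated limbs than in the flank.

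ST8SIA2 (axo11616-f_at), which adds polysialic acid to the neural cell adhesion molecule, was below its uninjured level in the flank at day 3, while the limb means were above theirs. It read 5.06, 5.48, 5.70 and 5.47 in flank wounds at day 3 and 6.06, 5.91, 5.76 and 6.28 in uninjured flank, without overlap. In the limb the day 3 levels were 6.03, 6.35, 5.92 and 6.40 when denervated and 5.67, 6.70, 6.83 and 5.80 when innervated, against 4.58, 5.10, 5.52 and 5.68 in uninjured limb, where 1 innervated array overlapped. Differences between sites were not called at any day tested. The differences from the flank at day 3 were 0.75 ± 0.29 for the denervated limb (adjusted p = 0.122, limma) and 0.82 ± 0.29 for the innervated limb (adjusted p = 0.0814).

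Among the genes of traffic and modification, RNF125 (axo16307-f_s_at), a ubiquitin ligase that limits antiviral signalling, had the clearest day 3 difference. It read 9.39, 9.32, 9.42 and 9.56 in denervated limbs, 9.10, 8.99, 9.25 and 8.68 in innervated limbs and 8.21, 7.90, 8.29 and 8.31 in flank wounds. The 3 groups did not overlap. In limma the denervated limb exceeded the flank by 1.25 ± 0.19 (adjusted p = 4.23e-05, limma) and the innervated limb exceeded it by 0.83 ± 0.19 (adjusted p = 0.00598), while the limb difference of 0.42 ± 0.19 was not called (adjusted p = 0.701). By day 7 the means were 9.29 ± 0.15, 9.47 ± 0.20 and 9.2 ± 0.20 (SD, n = 4 each) in the same order.

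MPP1 (axo08192-f_at), a scaffold protein of the membrane known from red blood cells, had its rise almost wholly after day 3. Its day 3 mean exceeded day 0 by 0.20, 0.11 and 0.01 in denervated limbs, innervated limbs and flank wounds. At day 7 it read 11.51, 11.58, 11.52 and 11.01 in denervated limbs, 10.59, 10.80, 11.05 and 11 in innervated limbs and 10.77, 10.52, 10.37 and 10.66 in flank wounds. The denervated arrays were above the flank arrays by 0.83 ± 0.17 (adjusted p = 0.00157, limma). The 9 other red cell and thrombocyte genes measured had mean levels of 5.43 to 5.85 in denervated limbs, 5.16 to 5.31 in innervated limbs and 5.55 to 6.15 in flank wounds at day 7, and their part in the MPP1 rise was not tested. Of the 9, 1 was higher at day 7 than at day 0 in each series. Of all probe sets, 13.1% were higher in denervated limbs, 12.8% in innervated limbs and 11.5% in flank wounds.

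ASAP1 (axo16956-r_at), which regulates Arf proteins at adhesion sites, was the 1 gene called lower in the innervated limb than in the flank at day 7 without overlap. It read 7.95, 7.94, 8.06 and 8.24 in innervated limbs and 8.96, 9.07, 8.55 and 8.31 in flank wounds, a difference of -0.68 ± 0.19 (adjusted p = 0.0188, limma). The call was lost without innervated replicate 1 or 2 (0.0583 and 0.0596) and without flank replicate 1 or 2 (0.0777 and 0.0899). A brighter ASAP1 probe set rose by 1.41, 1.22 and 1.70 at day 7 in denervated limbs, innervated limbs and flank wounds. It missed the limits through day 1 changes of 0.39 and 0.47 in denervated and innervated limbs. A dimmer ASAP1 probe set rose by 0.63, 0.42 and 0.95 at day 7. STON1, an adaptor of endocytosis, and TPST1, which sulfates tyrosines of secreted proteins, were called in none of the comparisons. STON1 averaged 6.22 ± 0.36 in denervated limbs, 5.46 ± 0.38 in innervated limbs and 6.05 ± 0.44 in flank wounds at day 7 (SD, n = 4 each), and TPST1 averaged 8.03 ± 0.50, 8.21 ± 0.10 and 7.84 ± 0.55.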

How the data were processed

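The log2 expression values deposited by the authors were used as they stand, with 2 decimals, between 2.41 and 15.04 and with array medians of 5.61 to 5.73. The unit was read from these values. Per the submitters' processing notes RMA and limma were used, without a statement of how. Arrays were grouped by the titles in the labels. Of the probe sets, 45 controls were left out and 20035 tested with limma 3.58.1 in R 4.3.3 (lmFit with 1 mean per group over all 44 arrays, eBayes, Benjamini-Hochberg adjustment, two-sided), with 33 residual degrees of freedom and a median standard error of a difference of 0.123. The number of arrays limits the precision. The steps were tested on simulated data with 200 changed probe sets.

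The members, the gene lists and the tests were chosen with earlier results of these data known. Lists of myeloid, osteoclast and lysosomal, lipid and sterol, matrix glycoprotein, actin and adhesion, muscle, and red cell and thrombocyte genes were counted without their members, with 1 probe set per gene. Of the 24 genes, those called without overlap between the arrays of the groups were named as calls, at most 8 per comparison. Calls with overlapping arrays are marked in the text. Test results that were not called are given for some of the genes as description and were not picked by this rule. Gene symbols came from the platform annotation, and all 24 matched the RefSeq table of assembly UKY_AmexF1_1. Coordinates and sequences are not used here. Replicates with the same number in different groups deviated together little on average, with a mean correlation of 0.0386 over 220 pairs. These correlations ran from -0.336 to 0.455, with 61 over 0.1, and the mean for different numbers was -0.0129. A shared deviation of some pairs is not excluded. The numbers were not used as a block in the main tests, and a block was tried as an alternative. The highest correlation between any 2 arrays was 0.994, and no more than 2.09% of values were equal, so no array was a copy of another. The alternatives tried were the replicate block, the compared arrays alone, array weights, quantile normalisation, centring on the median, a filter on dim probe sets, a trend and robust eBayes, omission of the 3 arrays of highest muscle signal and of each replicate in turn, and other limits of the choice.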

Additional observations from a re-analysis of the deposited data

Results flagged for a closer look

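Among the 264 groups of 4 arrays formed by the 24 genes and 11 groups, 11 held an array far from the others by Dixon's criterion, where chance gives about 1 in 20. The number flagged was no larger than this chance rate would give, so the flags alone do not mark faulty arrays. FABP3 read 10.88 in replicate 3 of the denervated limb at day 3, against 9.61 to 9.80 in the others. DCX read 5.60 in replicate 1 of the denervated limb at day 1, against 5.26 to 5.30, and 6.14 in replicate 2 of the innervated limb at day 3, against 5.05 to 5.07. ST8SIA2 read 6.29 in replicate 1 of the innervated limb at day 7, against 7.14 to 7.22, and 4.05 in replicate 4 of the flank at day 1, against 5.12 to 5.33. PLXND1 read 7.45 in replicate 3 of the innervated limb at day 7, against 6.89 to 6.96, and 7.06 in replicate 3 of the flank at day 7, against 7.36 to 7.42. ASAP1 read 6.81 in replicate 2 of the denervated limb at day 1, against 6.92 to 6.94, and 7.18 in replicate 2 of the uninjured flank, against 6.96 to 6.97. ITGB5 read 9.69 in replicate 1 of the innervated limb at day 7, against 9.96 to 10.01. MPP1 read 11.01 in replicate 4 of the denervated limb at day 7, against 11.51 to 11.58.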

How the results depend on the processing

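The number of genes depended on the limits of the choice. It was 24 as described, 37 with a day 7 rise of at least 0.8 and 16 with at least 1.2, 18 with a day 1 change under 0.2 and 33 with under 0.4, 35 with the 3 muscle-rich arrays omitted, and 21 to 32 when 1 array at a time was left out, with 32 without replicate 3 of the innervated limb at day 1. With 1 array left out, genes at least 1 above day 0 at day 3 numbered 11 to 17 in denervated limbs, 5 to 8 in innervated limbs, 4 to 6 in flank wounds and 1 to 4 in all series, with 4 without replicate 1 of the uninjured limb and 1 without replicate 4 of the innervated limb at day 3. The denervated count was 11 without the muscle-rich replicate 3 of the denervated limb at day 3. Of the 25 calls in the tests between sites, 15 were made in every alternative run and 10 were lost in at least 1, as given beside them, and 0 of 400 alternatives turned a direction. Calls between the limbs at day 7 numbered 9 with array weights and 2 to 6 with 1 array left out, with 2 without denervated replicate 1, 2 or 3 or innervated replicate 1. Calls of innervated limb against flank at day 7 numbered 5 with array weights and 1 to 3 with 1 array left out, with 1 without innervated replicate 1 or 2 or flank replicate 1. Calls of denervated limb against flank at day 7 numbered 6 with only those arrays fitted and 3 to 4 with 1 array left out, and those of day 0 numbered 0 with only those arrays. At day 3 leaving out 1 array gave 5 to 7 calls of innervated limb against flank, 6 to 9 of denervated limb against flank and 0 between the limbs. The number of genes with the higher day 3 mean in the denervated limb was 19 to 23 with 1 array left out, an alternative added after seeing the data. The change of the limb difference between the days gave 2 calls with array weights, 1 with quantile normalisation, 1 without the dimmest 25% of probe sets, 1 with trend and robust eBayes, and 0 to 1 with 1 array left out. With the replicate number as a block, which the labels do not tie to a shared animal or day, the counts were 0, 6 and 8 at day 3 (between the limbs, innervated limb against flank, denervated limb against flank), 5, 2 and 3 at day 7 in the same order, 1 at day 0 and 0 for the change of the limb difference, and no count differed from the fit without it. The causes of these changes were not tested. The 4 arrays per group, with a median standard error of 0.227 for a difference of these genes, limit what could be called.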
